A study of Homo sapiens with 6 samples.

Results

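The genes described here are 211 protein-coding genes off the sex chromosomes that were counted far more often in 1 library of hnRNP-F overexpressing cells, HG-OE replicate 3, than in the other 5 libraries. A gene was taken when it had at least 40 counted read pairs in HG-OE replicate 3 and a level there at least 5 times that in each other library, with levels in CPM, the count scaled to the total of the library. These genes were 211 of the 31831 rows of the count table and 1.25% of its 16866 protein-coding rows off the sex chromosomes. The genes were thus selected on their level in HG-OE replicate 3 against the other 5 libraries, so every difference between that library and the others is given here as a description, with no test.

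All libraries came from HK-2, an immortalized human cell line from the proximal tubule of the kidney, cultured in 30 mM glucose for 72 h. The HG-NC group (n = 3 libraries) carried the control construct and the HG-OE group (n = 3 libraries) the hnRNP-F construct, named as plasmids in the labels and as lentiviral vectors in the study's methods. Neither source names the promoter, and the cells of both groups are 1 line. The study calls the libraries biological replicates, and its methods name parallel wells for each group without saying whether the libraries came from separate infections. The total was between 25507595 and 29444841 counted pairs per library. The HNRNPF gene itself had 7733 to 8692 counts in HG-NC and 12492, 13155 and 12397 in the successive HG-OE libraries, so HG-OE replicate 3 lay with its group. PAX8, a transcription factor of the kidney lineage, had 11953 to 18291 counts and was thus abundant in every library. SLC34A1, the phosphate transporter that defines the differentiated proximal tubule, had 12 to 23 counts. LRP2, the endocytic receptor megalin, was at 0 in 5 libraries and had 17 counts in HG-OE replicate 3.

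Most of the genes named below are known from programs of other epithelia, which need not be the only tissues that use them. Hepatocytes secrete most plasma proteins, among them albumin, fibrinogen, the apolipoproteins and the carriers of iron, vitamins and hormones, under a network of transcription factors that includes HNF4A and ONECUT1. Before birth the liver also makes alpha-fetoprotein and insulin-like growth factor 2, and liver tumours often do so again. Stratified squamous epithelium instead builds its cells from keratin pairs such as KRT5 with KRT14, and later from cornified envelope proteins.

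In HG-OE replicate 3 the 211 genes held 53357 counts, or 1812 CPM. The other libraries had 1022, 1139 and 1478 counts over the same genes in HG-NC, and 1226 and 1212 in HG-OE replicates 1 and 2, in the order of their numbers. These sums were 40.1, 42.2 and 53.0 CPM in HG-NC and 42.3 and 41.5 CPM in HG-OE replicates 1 and 2. Thus 0.181% of the counted pairs of HG-OE replicate 3 lay on these genes (Wilson 95% interval 0.180% to 0.183%, which covers counting error only). In bulk samples, few cells with much of an RNA and many cells with little of it cannot be told apart. HG-OE replicate 3 was also the library with most genes counted at least once, 26423 against 24342 to 25012 in the others. In the study's read summary, it had the most clean reads of the high-glucose libraries. It also had the lowest mapped and uniquely mapped shares among them. How far these technical differences bear on the 211 genes was not tested.

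The same rule applied to each other library in turn found 0 protein-coding genes in every case. At a limit of 2-fold in place of 5-fold, it found 306 genes in HG-OE replicate 3, 1 in HG-NC replicate 1 and 0 in each of the others. In the opposite direction, among genes with at least 40 counts in each of the others, 0 were at least 5-fold lower than in every other library in any of the 6 libraries. HG-OE replicate 3 therefore stood apart by genes that were higher there, and in that library 2 genes were lower than in every other by 2-fold or more.

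**Figure D1:**
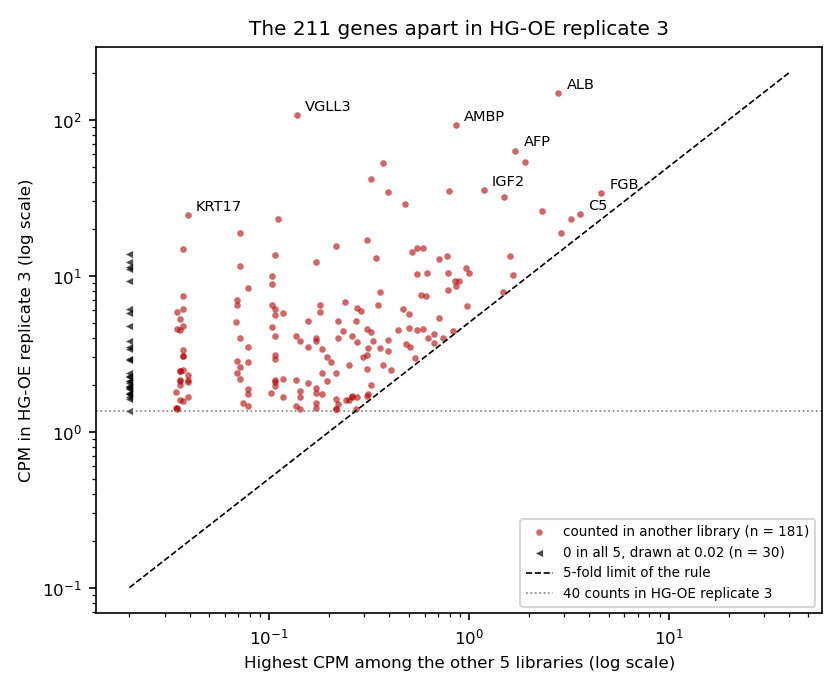
CPM in HG-OE replicate 3 (vertical axis, log scale) against the highest CPM among the other 5 libraries (horizontal axis, log scale) for each of the 211 genes. Black triangles at the left are the 30 genes with 0 counts in all 5 other libraries, the dashed line is the 5-fold limit and the dotted line the limit of 40 counts, so the empty area below these lines is set by the rule.

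Of the 211 genes, 30 had no count in any of the other 5 libraries and 154 had under 10 counts in each of them. Only 14 had 10 or more counts in each other library. Levels in HG-OE replicate 3 ran from 1.36 to 148 CPM with a median of 3.80 CPM. On the length-scaled FPKM values that the authors deposited, the median of these genes in HG-OE replicate 3 was 0.84 and the highest 43.48, against a median of 2.45 for protein-coding genes off the sex chromosomes. In the other 5 libraries the highest FPKM of any of them was 0.93. The genes were thus mostly of low abundance in HG-OE replicate 3 and close to undetected elsewhere.

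At the 5-fold limit, PRSS22 (5.09 times the highest other library), SLC22A23 (5.32) and TRIM71 (5.33) were the closest inside, and APOH (4.99), FADS2 (4.94) and VILL (4.85) the closest outside. At the limit of 40 counts, CDX2 (40 counts), CPVL and IGFBP2 (41 counts each) were just inside, and F7 and AGR2 (39 counts each) were among those just outside.

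The 4 stretches shown next are the 150 bases before the RefSeq start of ALB, AMBP and RBP4, the 3 most counted plasma carriers, and of AFP, the neighbour of ALB on chromosome 4. They are shown because these genes lead the liver group and to show where the letters TATAAA, the core of the TATA box that helps place the start of transcription, lie before them. AFP was added to the other three after its values were seen. The letters are GRCh38.p14 on the strand of the gene, 5′ to 3′, with TATAAA in capitals.
ALB, chr4:73404137-73404286, plus strand: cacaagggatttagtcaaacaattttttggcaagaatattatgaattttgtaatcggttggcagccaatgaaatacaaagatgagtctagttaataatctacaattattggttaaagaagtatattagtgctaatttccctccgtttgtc
AFP, chr4:73436071-73436220, plus strand: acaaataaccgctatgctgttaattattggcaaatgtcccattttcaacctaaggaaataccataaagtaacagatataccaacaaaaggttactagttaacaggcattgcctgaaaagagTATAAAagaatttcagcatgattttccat
AMBP, chr9:114078301-114078450, minus strand: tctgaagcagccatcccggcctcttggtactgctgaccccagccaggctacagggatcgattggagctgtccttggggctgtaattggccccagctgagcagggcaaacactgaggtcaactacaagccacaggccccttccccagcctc
RBP4, chr10:93601745-93601894, minus strand: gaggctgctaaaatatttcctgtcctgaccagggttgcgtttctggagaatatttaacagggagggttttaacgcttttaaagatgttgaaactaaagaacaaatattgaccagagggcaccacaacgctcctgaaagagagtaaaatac

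The stretch before AFP held TATAAA with its first base 29 bases before the start, and those before ALB, AMBP and RBP4 did not hold these letters on the strand of the gene. Over the 250 bases before the start, TATAAA on the strand of the gene was present in 24 of the 145 genes of the group that have an entry in the RefSeq promoter table (16.6%). It was present in 3 of 21 members of the liver lists (14.3%) and in 893 of all 12910 protein-coding genes matched off the sex chromosomes (6.92%). The AP-1 letters TGANTCA, searched on both strands, were present in 10.3% of the group and 6.79% of all. The HNF4 letters CAAAGTCCA, also on both strands, were found in 2 of the 145 genes of the group (1.38%) and in 57 of all 12910 (0.442%). None of the 21 members of the liver lists held the HNF4 letters, and 2 of these 21 held the AP-1 letters. With so few genes, nothing is read from the HNF4 shares. These promoters also differed in base composition, with a median of 58.8% G and C in the group, 54.8% in the liver lists and 63.6% in all genes, and the part of composition in the motif shares was not tested.

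Liver secretory genes were the most abundant named group. Over 7 lists of liver genes (plasma carriers, apolipoproteins, coagulation, complement and acute phase, enzymes and transporters, transcription factors, fetal liver and hepatoma), 31 genes met the rule. Together they held 20537 counts in HG-OE replicate 3, which is 38.5% of all counts of the 211 genes, and their summed level was 698 CPM there against 9.25 to 20.4 CPM in the other libraries. The share of all protein-coding rows that met the rule was 1.25%, and the lists were written with earlier results of these libraries known, so the counts per list describe the group and are no test of it.

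Of 22 plasma carrier genes in the table, 9 met the rule. ALB (ENSG00000163631.17, chr4:73397114-73421482), albumin, the main protein of plasma, was the most counted of all 211. It had 4, 1 and 78 counts in HG-NC (always in the order of the replicate numbers), 0 and 1 in HG-OE replicates 1 and 2 and 4359 in HG-OE replicate 3, and HG-NC replicate 3 was thus the only other library with more than 4 counts. AMBP (ENSG00000106927.12, chr9:114060127-114078328), the precursor of alpha-1-microglobulin and bikunin, had 17, 13 and 24 counts in HG-NC, 8 and 11 in HG-OE replicates 1 and 2 and 2717 in HG-OE replicate 3. RBP4, the plasma carrier of retinol, had 0, 1 and 9 counts in HG-NC, 2 and 3 in HG-OE replicates 1 and 2 and 1232 in HG-OE replicate 3. TF, transferrin, the carrier of iron, had 0, 0 and 11 counts in HG-NC, 1 and 0 in HG-OE replicates 1 and 2 and 1006 in HG-OE replicate 3. For ALB, RBP4 and TF, HG-NC replicate 3 was the highest of the 5 other libraries, at 78, 9 and 11 counts.

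The other members of this list were VTN (vitronectin), GC (the vitamin D binding protein), the paired acute phase genes ORM1 and ORM2, and ITIH2, with 342, 223, 219, 91 and 86 counts in HG-OE replicate 3. ORM1 and ORM2 are near-identical neighbours, so the split of pairs between them is uncertain. The readthrough gene CTB-96E2.2, also a member with 120 counts, overlaps VTN on the same strand.

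Several plasma carriers did not meet the rule, and those already abundant could not readily have met it. SERPINA1, alpha-1-antitrypsin, had 6990, 7155 and 7221 counts in HG-NC and 13250, 13347 and 11560 in HG-OE, so the last library was not the highest. TTR, transthyretin, had 38 counts in HG-OE replicate 3, just under the minimum, and 0 to 3 elsewhere. SERPINA3, AFM and ITIH1 had 0 counts in HG-OE replicate 3, and HAMP, which encodes hepcidin, had 3. The plasma protein set of a hepatocyte was therefore present in part.

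Of 10 apolipoprotein genes, 4 met the rule. APOB (ENSG00000084674.15, chr2:21001429-21044073), the structural protein of very-low-density lipoprotein, had 5, 0 and 53 counts in HG-NC, 0 and 0 in HG-OE replicates 1 and 2 and 1583 in HG-OE replicate 3. APOA2, a protein of high-density lipoprotein, had 0, 4 and 6 counts in HG-NC, 2 and 0 in HG-OE replicates 1 and 2 and 456 in HG-OE replicate 3. APOC3 and APOA1, which lie 7917 bases from end to end on chromosome 11, had 61 and 48 counts there and at most 6 elsewhere. APOE was not a member, with 517 to 580 counts in HG-NC, 1439 and 1416 in HG-OE replicates 1 and 2 and 2414 in HG-OE replicate 3.

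Of 19 coagulation genes, 7 met the rule, among them the 3 chains of fibrinogen, the soluble precursor of the clot, which lie together within 49957 bases of chromosome 4. FGB, the beta chain, had 24, 29 and 55 counts in HG-NC, 124 and 134 in HG-OE replicates 1 and 2 and 994 in HG-OE replicate 3. FGA, the alpha chain, had 4, 0 and 65 counts in HG-NC, 0 and 0 in HG-OE replicates 1 and 2 and 761 in HG-OE replicate 3. FGG, the gamma chain, had 7, 2 and 27 counts in HG-NC, 3 and 2 in HG-OE replicates 1 and 2 and 332 in HG-OE replicate 3. FGB was thus raised in all 3 HG-OE libraries relative to the HG-NC range, while FGA and FGG were not raised in HG-OE replicates 1 and 2. F2 (prothrombin), F10, F5 and SERPIND1 (heparin cofactor II) had 183, 118, 83 and 57 counts in HG-OE replicate 3 and at most 7 elsewhere. The non-member PLG, plasminogen, had 4 counts and SERPINC1, antithrombin, had 2.

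Complement and acute phase genes gave 3 of 23. C5, a component of the terminal complement pathway, had 75, 97 and 89 counts in HG-NC, 102 and 101 in HG-OE replicates 1 and 2 and 728 in HG-OE replicate 3. MASP1, a protease of the lectin pathway, had 176 counts in HG-OE replicate 3 and 2 to 8 elsewhere, and FGL1, a secreted hepatocyte protein, had 58 and 0. C3, the central complement component, was abundant in every library, with 8491 to 9260 counts in HG-NC and 14695 to 15838 in HG-OE, and was no member.

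Of the 30 enzymes and transporters of mature liver in the table, 0 met the rule. ARG1, arginase of the urea cycle, had 3 counts in HG-OE replicate 3, CYP2E1 and CYP3A4, cytochromes P450 of drug metabolism, had 10 and 11, and TAT, tyrosine aminotransferase, had 8. CPS1, the first enzyme of the urea cycle, had 225 to 274 counts in HG-NC and 101 to 131 in HG-OE. The summed level of this list was 90.6 CPM in HG-OE replicate 3, between the 86.6 and 94.4 CPM of HG-OE replicates 2 and 1, and 138 to 139 CPM in HG-NC. UGT2B7 alone gave 69.9 CPM of this sum in HG-OE replicate 3. It gave 80.2 and 73.5 CPM in HG-OE replicates 1 and 2 and 119 to 124 CPM in HG-NC. The sum thus says little about the other genes of the list. Of the 30, 15 had their highest CPM of the 6 libraries in HG-OE replicate 3, and 26 had under 40 counts there. Outside this list, some other liver enzymes and transporters were members, among them the sulfotransferase SULT2A1 with 72 counts, the cytochrome CYP2B6 with 51, the methyltransferase BHMT2 with 57 and the citrate transporter SLC13A5 with 41.

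Of 12 transcription factors of the hepatic network, 4 met the rule. HNF4A (ENSG00000101076.18, chr20:44355699-44432845), a nuclear receptor needed for hepatocyte differentiation, had 0 counts in each of the other 5 libraries and 323 in HG-OE replicate 3. Against 3 counts over the 5 libraries together, the ratio was 507, with counting error in the 323 left out, so it is no lower limit. PROX1, a homeobox factor of liver and lymphatic endothelium, had 187 counts against 8 to 25, and ONECUT1 had 49 against 2 to 7. FOXA2, a pioneer factor of endoderm, was just outside the group with 224 counts against 1 to 44. FOXA1 had 291 to 369 counts in the other 5 libraries and 415 in HG-OE replicate 3.

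The fetal liver and hepatoma list gave 4 of 7. AFP (ENSG00000081051.8, chr4:73431138-73456174), the main plasma protein of the fetus, had 33, 46 and 44 counts in HG-NC, 49 and 36 in HG-OE replicates 1 and 2 and 1866 in HG-OE replicate 3. IGF2, an imprinted fetal growth factor, had 7, 32 and 17 counts in HG-NC, 32 and 31 in HG-OE replicates 1 and 2 and 1045 in HG-OE replicate 3. SPINK1, a secreted trypsin inhibitor, had 7, 9 and 5 counts in HG-NC, 6 and 14 in HG-OE replicates 1 and 2 and 853 in HG-OE replicate 3, and TM4SF5, a membrane protein of the tetraspanin-like kind, had 0 in each of the 5 and 169. The 5 other libraries lay close together for AFP, and HG-NC replicate 3 did not stand apart there.

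**Figure D2:**
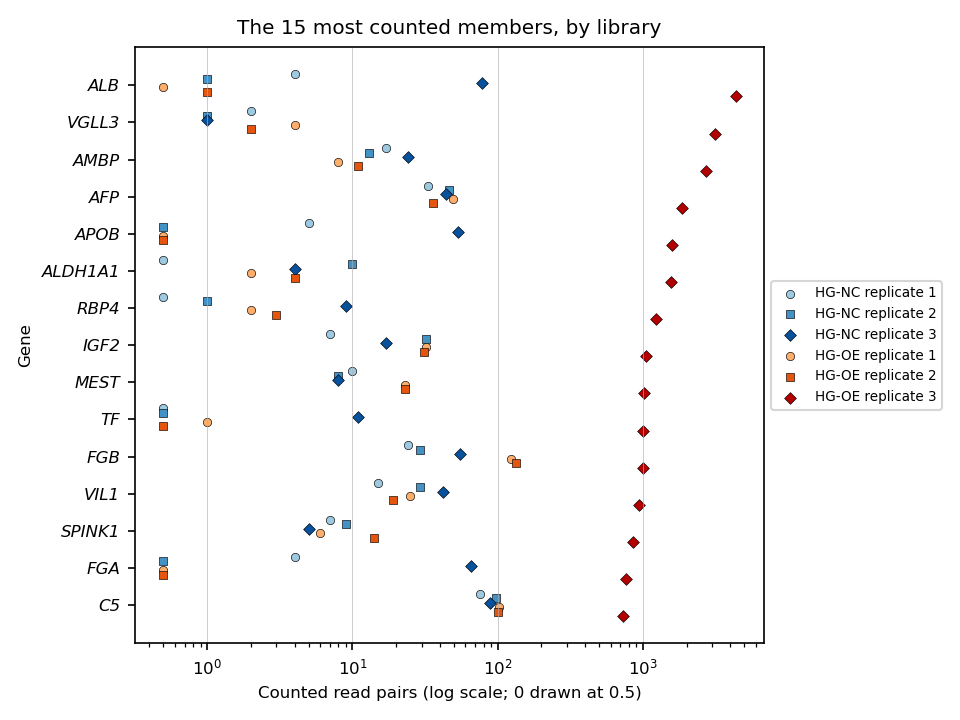
Counted read pairs (log scale, with 0 drawn at 0.5) of the 15 most counted of the 211 genes in each of the 6 libraries, with 1 point per library. HG-OE replicate 3 (dark red diamonds) has 728 counts for C5 up to 4359 for ALB. HG-NC replicate 3 (dark blue diamonds) lies above the other HG-NC libraries for ALB, AMBP, APOB, RBP4, TF, FGB, VIL1 and FGA.

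The 15 most counted genes held 44.6% of the counts of the group in HG-OE replicate 3. Besides the liver genes they were VGLL3, ALDH1A1, MEST and VIL1. VGLL3 (ENSG00000206538.9, chr3:86876388-86991149), a cofactor of TEAD transcription factors, had 2, 1 and 1 counts in HG-NC, 4 and 2 in HG-OE replicates 1 and 2 and 3143 in HG-OE replicate 3, which is 773 times the highest other library and the largest such ratio among the genes counted elsewhere. ALDH1A1, a retinaldehyde dehydrogenase of many epithelia and of liver, had 0, 10 and 4 counts in HG-NC, 2 and 4 in HG-OE replicates 1 and 2 and 1565 in HG-OE replicate 3. MEST, an imprinted gene expressed from the paternal allele, had 10, 8 and 8 counts in HG-NC, 23 and 23 in HG-OE replicates 1 and 2 and 1025 in HG-OE replicate 3. VIL1, villin, which bundles actin in microvilli, had 15, 29 and 42 counts in HG-NC, 25 and 19 in HG-OE replicates 1 and 2 and 939 in HG-OE replicate 3. VGLL3 belongs to none of the 24 lists used here.

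Keratinocyte genes formed a smaller group. Over 3 lists (basal, activated and suprabasal, cornified envelope), 10 genes met the rule, 3 of 20, 5 of 23 and 2 of 17. Their summed level was 72.1 CPM in HG-OE replicate 3 and 0.242 to 0.740 CPM in the other libraries. KRT17 (ENSG00000128422.17, chr17:41619442-41624842), a keratin of basal and injured epithelium, had 1, 1 and 1 counts in HG-NC, 0 and 1 in HG-OE replicates 1 and 2 and 724 in HG-OE replicate 3. KRT5 (ENSG00000186081.12, chr12:52514575-52520530), the type II keratin of basal cells, had 0 counts in each of the 5 and 334 in HG-OE replicate 3. Its ratio against 3 counts over the 5 libraries was 524, with counting error in the 334 left out. KRT6A, a keratin of activated keratinocytes, likewise had 0 in each and 274, and it has near-identical paralogs with which pairs may be shared. KRT13, a keratin of non-cornifying mucosa, had 2, 0 and 2 counts in HG-NC, 0 and 1 in HG-OE replicates 1 and 2 and 247 in HG-OE replicate 3.

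S100A9 and S100A8, the calprotectin pair, had 231 and 50 counts in HG-OE replicate 3 and at most 10 elsewhere. TRIM29, a basal cell protein, had 102 counts, and SPRR2E and CSTA of the cornified envelope and the serpin SERPINB3 had 66, 43 and 52. KRT14, the partner of KRT5, had 3 counts in HG-OE replicate 3 and KRT6B had 2, both with 0 elsewhere. TP63, the factor that specifies squamous epithelium, was just under the minimum with 36 counts against 0 to 3. The squamous program was thus represented by some of its members and not by the keratin pair that defines basal cells.

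Other epithelial genes were frequent in the group. From the simple epithelium list 4 of 18 met the rule, among them CDH1 (E-cadherin), ST14 (the protease matriptase) and CLDN7 (a claudin). CDH1 had 6, 4 and 2 counts in HG-NC, 5 and 10 in HG-OE replicates 1 and 2 and 384 in HG-OE replicate 3. ST14 had 157 counts against 13 to 18 and CLDN7 118 against 1 to 6. Of the same list, KRT8 and KRT18, the keratin pair of simple epithelium, were no members, with 28781 and 14286 counts in HG-OE replicate 3, up to 19006 and 8221 in HG-OE replicates 1 and 2 and up to 8332 and 5783 in HG-NC. From the intestinal list VIL1, FABP1 (a fatty acid binding protein of liver and gut) and CDX2 (an intestinal homeobox factor) met the rule, 3 of 12, and FABP1 and CDX2 had 76 and 40 counts.

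**Figure D3:**
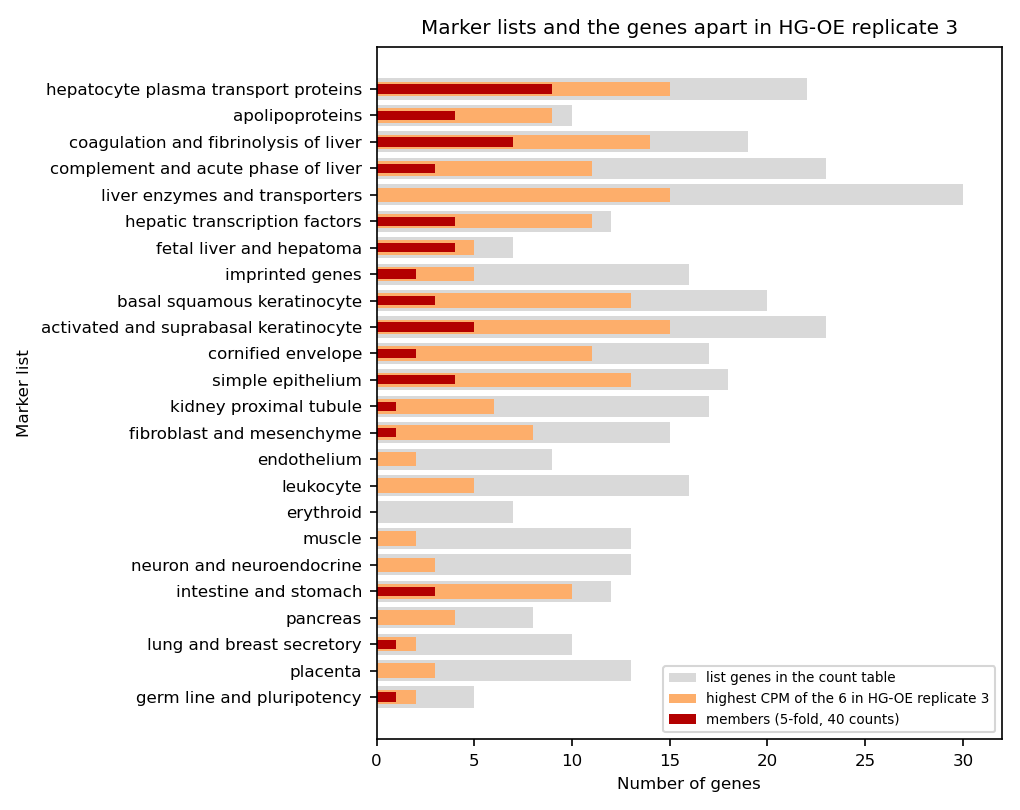
Number of genes (horizontal axis) in each of 24 marker lists that were in the count table off the sex chromosomes (grey), that had their highest CPM of the 6 libraries in HG-OE replicate 3 (orange), and that met the rule (red). Plasma carriers lead with 9 of 22, coagulation follows with 7 of 19, and the endothelium, leukocyte, erythroid, muscle, neuron, pancreas, placenta and liver enzyme lists hold 0.

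No gene met the rule among 9 of endothelium, 16 of leukocytes, 7 of erythroid cells, 13 of muscle, 13 of neurons, 8 of pancreas and 13 of placenta. Some of their defining genes were near 0 in HG-OE replicate 3, with 2 counts for PTPRC, the common leukocyte antigen, 1 for HBB, the beta chain of adult haemoglobin, and 1 for CDH5, the endothelial cadherin. Others were abundant in all 6 libraries, such as UCHL1, a ubiquitin hydrolase of neurons, with 20630 to 22817 counts, NEFH, a neurofilament chain, with 2426 to 3227, TNNT1, a troponin of slow muscle, with 5194 to 7364, and EGFL7 of endothelium with 429 to 579. For these 4 genes HG-OE replicate 3 lay below the highest other library by CPM. On the leukocyte list, CD14, a receptor for lipopolysaccharide, had 428 counts in HG-OE replicate 3 against 78 to 141, and LCP1, an actin-bundling protein, 354 against 102 to 138. The summed level of the leukocyte list was 44.2 CPM there and 27.6 to 29.6 CPM elsewhere, and the erythroid list summed to 0.204 CPM there and 0.0784 to 0.311 CPM elsewhere. The leukocyte list does not hold CD7, a member with 132 counts in HG-OE replicate 3 and at most 1 elsewhere. S100A9 and S100A8 were placed on a keratinocyte list only. The proximal tubule, fibroblast, lung and germ line lists gave 1 gene each. They were ANPEP (an aminopeptidase of the brush border, 54 counts), COL1A2 (a chain of type I collagen, 141), SCGB1A1 (the club cell secretoglobin, 42) and LIN28B (an inhibitor of the maturation of let-7 microRNA, 259). COL1A2 had 0 counts in the other 5 libraries, while COL1A1, which encodes its partner chain, had 294 to 367 there and 289 in HG-OE replicate 3. In all, 53 of the 211 genes were in any list and 158 (74.9%) in none.

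Further groups by known function were named after the values were seen, and some of their genes are also in the lists above. Liver receptors and genes of lipid handling numbered 17, with a summed level of 101 CPM in HG-OE replicate 3 and 4.63 to 5.02 CPM elsewhere. They included both subunits of the asialoglycoprotein receptor, which clears glycoproteins from plasma. ASGR2 had 0, 1 and 1 counts in HG-NC, 0 and 0 in HG-OE replicates 1 and 2 and 436 in HG-OE replicate 3, and ASGR1 had 15, 25 and 28, then 48 and 31, and 296. LIPC, hepatic lipase, had 306 counts against 11 to 29.

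Epithelial barrier and surface genes numbered 15, with 112 CPM against 2.09 to 3.05 CPM. S100P, a calcium-binding protein of placenta and of epithelial tumours, had 678 counts against 0 to 3 and the highest FPKM of all 211 genes, 43.48, while AQP3, a water and glycerol channel, had 497 counts against 3 to 9. The adhesion molecules CEACAM6 and CEACAM5, neighbours on chromosome 19, had 102 and 90 counts against 0 and at most 1. Brush border genes numbered 7, VIL1 included, with 55.3 CPM against 1.45 to 2.47 CPM.

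Developmental and cancer-testis genes numbered 7, with 28.8 CPM against 0.251 to 0.966 CPM. LIN28B had 0 counts in each HG-NC library, 3 and 1 in HG-OE replicates 1 and 2 and 259 in HG-OE replicate 3. GATA4, a factor of heart and endoderm, had 219 counts against at most 1. Interferon-induced genes numbered 5, of which IFI27 had 10, 13 and 10 counts in HG-NC, 17 and 13 in HG-OE replicates 1 and 2 and 440 in HG-OE replicate 3. Matrix and contractile genes numbered 9, among them COL5A2 (a chain of type V collagen) with 679 counts against 59 to 88 and MGP (matrix Gla protein) with 360 against 0.

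The genes were spread over every autosome, from 1 on chromosome 21 to 20 on chromosome 1, and the share of protein-coding rows that met the rule ran from 0.425% on chromosome 20 to 1.89% on chromosome 11. None of the 13 mitochondrial protein-coding rows met it. Within 100000 bases of each other lay 34 of the 211, in 16 groups such as FGB with FGA and FGG, ASGR2 with ASGR1 and CLDN7, ALB with AFP and KRT6A with KRT5. A further gene on the same strand overlapped 51 of the 211, UGT1A8, APOC4-APOC2 and IGF2 among them. Since the counting of overlapping genes is not given in the sources used here, their counts may belong in part to the other gene.

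HG-NC replicate 3 had the next highest sum over the 211 genes, and its excess lay in the liver genes. It was the highest of the other 5 libraries, by CPM, for 17 of the 31 liver list genes (54.8%), for 1 of the 10 keratinocyte genes (10.0%) and for 39 of the other 170 (22.9%). Summed CPM over the liver genes was 20.4 in HG-NC replicate 3, against 9.25 and 10.4 in the other HG-NC libraries and 12.9 and 12.7 in HG-OE replicates 1 and 2. Over the other 170 genes it was 31.9, against 28.5 to 31.1 in the remaining 4, so HG-NC replicate 3 hardly differed there.

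The liver genes raised in HG-NC replicate 3 did not keep the proportions they had in HG-OE replicate 3. ALB had 78 counts in HG-NC replicate 3 and 4359 in HG-OE replicate 3, while FGA had 65 and 761. HP, haptoglobin, was about as abundant in both, with 34 and 33 counts and at most 2 in the remaining 4 libraries. CRP, the acute phase C-reactive protein, had 17 counts in HG-NC replicate 3, 1 in HG-OE replicate 3 and 0 in the other 4. AFP had 44 counts in HG-NC replicate 3, within the 33 to 49 of the remaining 4 libraries. The liver genes of both libraries thus overlapped in ALB, APOB, FGA, ORM1 and TF and in HP, and differed in CRP and AFP.

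**Figure D4:**
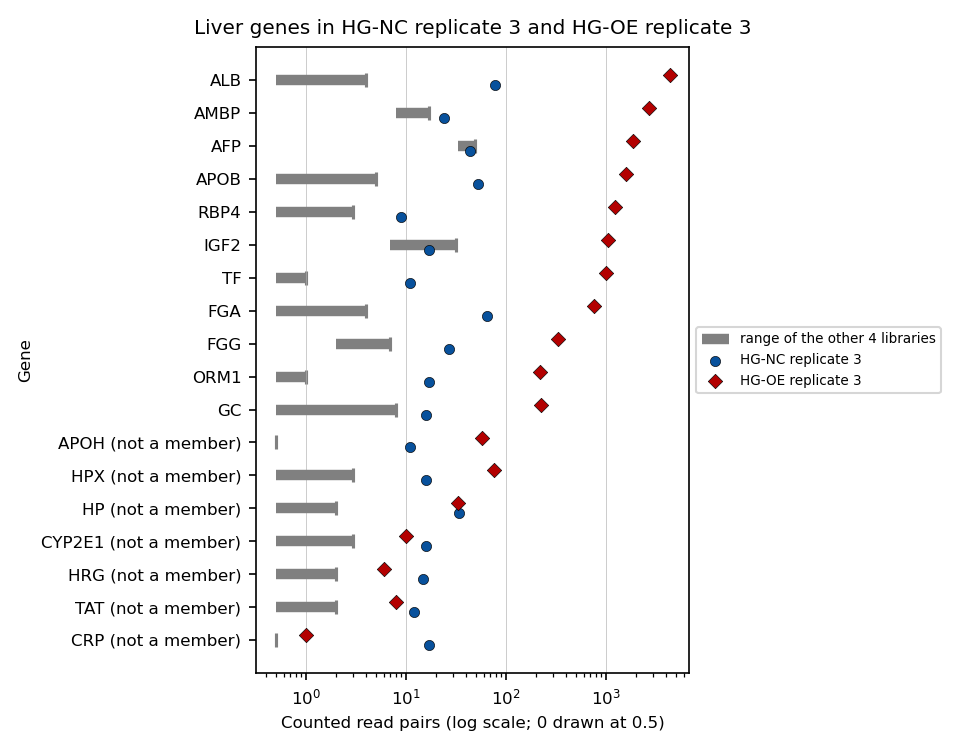
Counted read pairs (log scale, with 0 drawn at 0.5) of 18 liver genes, chosen after their values were seen, in HG-NC replicate 3 (blue circles), HG-OE replicate 3 (red diamonds) and the range of the remaining 4 libraries (grey bars). HG-NC replicate 3 lies above the grey bar for ALB, APOB and FGA, inside it for AFP, level with HG-OE replicate 3 for HP and above it for CRP.

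The study's comparison of HG-OE with HG-NC includes HG-OE replicate 3, so the 211 genes enter it. With all 6 libraries, edgeR's default filter on low counts kept 39 of the 211, and 24 of these were called higher in HG-OE and 0 lower, at an adjusted p under 0.05 and at least a 2-fold change. Over all 17142 genes tested, 3.69% were called higher and 2.13% lower. The filter asks for counts in 3 libraries, so a gene high in HG-OE replicate 3 alone did not pass, and the rule used these same libraries, so nothing is read from the 24. The Wald test of DESeq2 gave all 211 a fold change, with no adjusted p for 114 of them, and called 28 higher and 0 lower, against 2.84% and 1.61% of the 19968 genes with an adjusted p. Without its rule on count outliers, DESeq2 called 64 higher and 0 lower, against 3.09% and 1.66% of all.

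For AMBP, AFP and C5, the log2 fold changes of this fit were 5.53, 3.86 and 1.71, with standard errors of 1.62, 1.15 and 0.589, and the HG-OE mean was set by 1 library of 3. ALB, VGLL3, APOB, KRT17 and the other genes close to 0 in 5 libraries did not pass the filter.

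Without HG-OE replicate 3, the order of HG-OE replicates 1 and 2 against HG-NC was not used by the rule and could be tested. Of the 211 genes, 37 passed the filter of this fit, 4 were called higher in HG-OE and 4 lower, and over all 17366 genes tested 3.60% were called higher and 2.63% lower. FGB rose by 1.73 on the log2 scale (SE 0.212, adjusted p = 1.04e-09 by edgeR), as did TRIM71, a repressor of mRNAs in development, by 1.58 (SE 0.438, adjusted p = 0.00198). USP19, a deubiquitinase, rose by 1.39 (SE 0.476, adjusted p = 0.0119) and MEST by 1.28 (SE 0.426, adjusted p = 0.00955) on the same scale. FGB had 24 to 55 counts in HG-NC and 124 and 134 in these HG-OE libraries, and TRIM71 had 6 to 9 and 24 in each.

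Those called lower were FBLIM1, a filamin-binding adhesion protein (log2 fold change -2.79, standard error 0.620), WNK2, a kinase (-1.90, 0.610), MX2, an interferon-induced GTPase (-1.50, 0.645), and TTN, titin of muscle (-1.19, 0.480). Their adjusted p-values from the same edgeR test were 0.000145, 0.00734, 0.0458 and 0.0331. FBLIM1, for example, had 13, 15 and 22 counts in HG-NC, 2 and 3 in HG-OE replicates 1 and 2, and 308 in HG-OE replicate 3. With DESeq2 the calls of FGB, TRIM71 and FBLIM1 remained and those of the other 5 genes were lost. Those calls were also lost when HG-OE replicate 1 or HG-OE replicate 2 was left out too, which leaves a lone HG-OE library. Other members were then called lower instead. Without HG-NC replicate 2, USP19 and TTN were not called, without HG-NC replicate 3 TTN was not, and MX2 did not pass the filter without HG-NC replicate 1 or 2.

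The other 29 genes tested were not called, and AMBP (log2 fold change -1.03, standard error 0.456), AFP (-0.06, 0.260), VIL1 (-0.49, 0.358) and C5 (0.11, 0.170) were among them. For ALB, APOB, TF and FGA, which did not pass the filter, HG-OE replicates 1 and 2 had 0 or 1 counts each, at or below HG-NC replicate 1 for 3 of these genes and with 1 and 0 against 0 counts for TF. Other liver members could not be tested where they did not pass the filter. ASGR1 (48 and 31 counts against 15 to 28) and LIPC (29 and 29 against 11 to 18) lay above the HG-NC counts in both libraries but were not called.

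**Figure D5:**
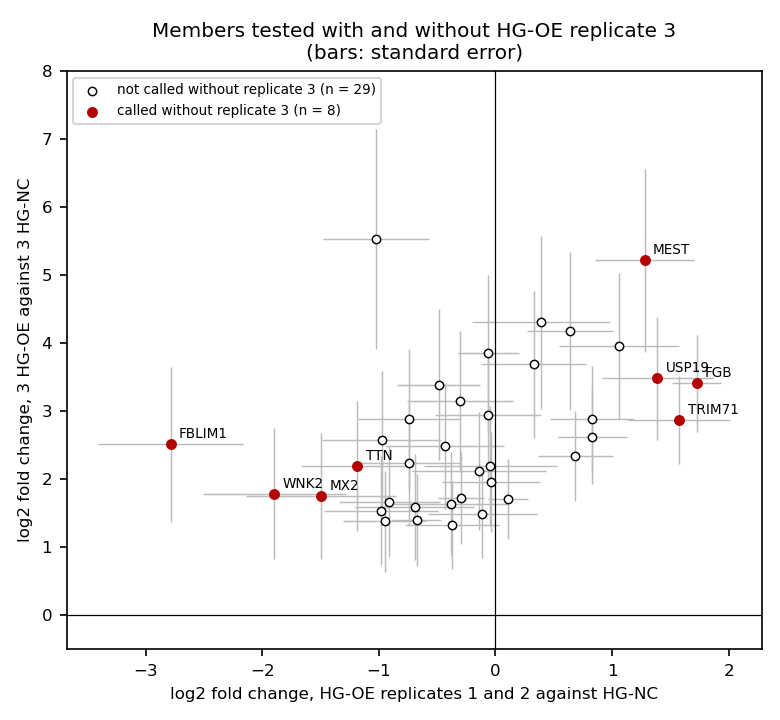
log2 fold change of HG-OE over HG-NC with all 6 libraries (vertical axis) and without HG-OE replicate 3 (horizontal axis) for the 37 members tested in both fits, with standard errors as bars. The fits share 5 libraries, and the 8 genes called without HG-OE replicate 3 (red) are split into 4 higher (FGB, TRIM71, USP19, MEST) and 4 lower (FBLIM1, WNK2, MX2, TTN).

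Noncoding RNA moved in the same library, including species without a poly(A) tail. The same limits applied to noncoding rows off the sex chromosomes found 29 in HG-OE replicate 3, of which 10 were lncRNA, 7 snRNA, 4 misc_RNA, 3 rRNA, 2 snoRNA and 3 pseudogenes. 7SK, the RNA that holds the elongation factor P-TEFb inactive, had 181, 187 and 280 counts in HG-NC, 646 and 589 in HG-OE replicates 1 and 2 and 5595 in HG-OE replicate 3. Some of these RNAs, 7SK among them, were thus above HG-NC in all HG-OE libraries and others were not. RNVU1-31 had 2 to 8 counts in HG-NC, 31 and 14 in HG-OE replicates 1 and 2 and 268 in HG-OE replicate 3. SNORA73B had 14 to 27, then 25 and 15, and 637. Among the 211 coding genes, 4 were clustered histone genes, whose mRNAs also lack a poly(A) tail (H3C2, H3C3, H2AC20 and H1-5), with 52 to 101 counts in HG-OE replicate 3 and at most 10 elsewhere. These libraries were made from RNA captured by its poly(A) tail, and how far the capture differed between libraries was not tested.

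The tissue of origin of the added counts can be described only by these markers. Genes of liver plasma proteins (ALB, AMBP, APOB) and of fetal liver (AFP, IGF2) were members, as was HNF4A of the hepatic factor list. Of the 30 listed enzymes and transporters, 0 were. ANPEP of the proximal tubule list was a member as well, and genes of a list need not be confined to its tissue. Some keratinocyte and other epithelial genes were members too, and 0 genes of the endothelium, leukocyte, erythroid, muscle and neuron lists. These lists are not complete, and the member CD7, for example, is on none of them. RNA or cells from another source and expression by some HK-2 cells of HG-OE replicate 3 cannot be told apart from gene counts of 1 library, and neither was tested.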

How the data were processed

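RNA-seq of HK-2 cells in high glucose gave 6 directional libraries of poly(A)-captured RNA, 3 of HG-NC and 3 of HG-OE, grouped by their labels. Reads were trimmed by the authors with the FASTX-Toolkit and aligned to GRCh38 with HISAT2, and the deposited counts are whole read pairs per gene without normalization. FPKM values made by the authors from these counts were deposited too. The counting tool and annotation are not given in the sources used here, and the study names ComBat_seq without stating whether it entered these counts. The libraries held between 25507595 and 29444841 counted pairs, and a count of 0 in a library allows up to 3.

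The 211 genes were selected by the count table's own gene types and column totals. The members and the 24 lists (401 genes) were chosen with earlier results of these data known, and 7 further groups after the values were seen. Genes named were the members in the lists, the 15 most counted, those next to the limits, those called without HG-OE replicate 3, and up to 4 list genes outside the group by CPM; other names were chosen after their values were seen. Some genes that the rule names are not reported here. Positions came from GENCODE release 44 and promoters from the RefSeq table of GRCh38.p14, which matched 145 of 211.

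Groups were compared in R 4.3.3 with edgeR 4.0.16 (TMM, default low-count filter, quasi-likelihood test, Benjamini-Hochberg adjustment over all genes tested), and calls needed an adjusted p under 0.05 and at least a 2-fold change, as in the study. Standard errors are those of the edgeR log2 fold change. Alternatives were DESeq2 1.42.0, limma 3.58.1 on log2 FPKM with 1 or 0.1 added (filter: mean FPKM 0.1 or more), other scalings and filters, a replicate block and each library left out. The fits were tested on simulated data. Same-numbered libraries did not deviate together (correlations of their deviations -0.03, 0.03 and -0.001), so they were not paired. P-values measure the spread between these libraries, which may be technical.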

Additional observations from a re-analysis of the deposited data

How the results depend on the processing

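The number of genes meeting the rule was 119 at 100 counts, and within 1.5 times of 211 under the other settings, from 167 at 10-fold to 257 at 3-fold, with 212 on TMM-scaled libraries and 242 against HG-OE replicates 1 and 2 only, a setting chosen after seeing the data. Their summed level in HG-OE replicate 3 stayed within 1.5 times. With 6 libraries, members called higher (24) became 193 without a low-count filter, 11 at 10 counts in every library, 64 with DESeq2 without its outlier rule, 1 with limma on log2(FPKM + 0.1), 0 with limma on log2(FPKM + 1) (unadjusted p under 0.05 for 1) and 0 with limma without a filter (unadjusted p under 0.05 for 0). Leaving out 1 library gave 4 to 53 called higher and 0 to 4 lower. Without HG-OE replicate 3 it was 4 and 4, without HG-OE replicates 1 or 2 it was 52 and 53, and without HG-NC replicates 1, 2 or 3 it was 9, 10 and 12. Without HG-OE replicate 3 the log2 fold changes of AMBP, AFP and VIL1 turned to -1.03, -0.062 and -0.49, and over all libraries left out in turn they reached up to 6.11, 4.42 and 3.95. In the comparison without HG-OE replicate 3, members called higher (4) became 2 with DESeq2 and 2 to 6 with a further library left out (2 without HG-OE replicate 1 or 2). Those called lower (4) became 8 without a filter, 1 with DESeq2 and 3 to 5 with a library left out. With the replicate number as a block, 21 were called higher with 6 libraries, and 4 higher and 5 lower without HG-OE replicate 3. The libraries share only a number, so nothing rests on this pairing. With a library left out, a lone or paired arm is assumed to vary like the other group. Other causes of these changes were not tested. At these depths, a gene with 0 counts may have up to 3.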

Other observations

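Without HG-OE replicate 3, a search for genes at least 5 times each of the other 4 libraries with at least 10 counts found 13 coding genes in HG-NC replicate 3, 3 in HG-NC replicate 2 and 0 in each of HG-NC replicate 1 and HG-OE replicates 1 and 2. All 13 in HG-NC replicate 3 are genes of liver plasma proteins or enzymes, 5 of which are among the 211 genes. The other 8 were APOH, HPX, CRP, SERPING1, TAT, HP, HRG and CYP2E1, with 11 to 34 counts in HG-NC replicate 3. Of these, SERPING1 (12 counts in HG-NC replicate 3 and 4 in HG-OE replicate 3), TAT (12 and 8), HRG (15 and 6), CYP2E1 (16 and 10) and CRP (17 and 1) were lower in HG-OE replicate 3, and APOH (11 and 58) and HPX (16 and 76) were higher.

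GPC3, an oncofetal proteoglycan of liver, lies on the X chromosome and was outside the rule. It had 41, 40 and 29 counts in HG-NC replicates 1, 2 and 3, 29 and 20 in HG-OE replicates 1 and 2 and 1171 in HG-OE replicate 3. Of the noncoding rows that met the rule, RMRP had 35 to 56 counts in HG-NC, 104 and 66 in HG-OE replicates 1 and 2 and 762 in HG-OE replicate 3, and LINC00261, an lncRNA next to FOXA2, had 0 or 1 in each of the 5 and 208.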
